A study of Lentinus tigrinus with 27 samples.

Results

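In the mushroom Lentinus tigrinus, 52 of 15581 gene models (0.334%) were higher in the stipe than in the cap at each of the 3 stages at which both tissues were sampled. They were chosen on measured values. With M the mean of log2(TPM + 1) over the 3 libraries of a group, where TPM is a gene's length-corrected share of a library's transcripts, scaled to the same total in each library, M of the stipe had to lie at least 1 above M of the cap, a 2-fold difference, in the stage 2 primordium, the young fruiting body and the fruiting body. M of the young stipe had to be at least 3 (about 7 TPM), and the fruiting body stipe, the vegetative mycelium and the lamellae each had to lie less than 1 above it. Stipe against cap is therefore the choice itself and is described here without a test.

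The libraries were 27 polyA RNA libraries of strain RLP-9953-sp, 3 biological replicates in each of 9 groups. Vegetative mycelium (VM) precedes fruiting. The fruiting cultures grew on sawdust with bran, dark for 21 days at 30 °C, before a move to 25 °C and equal day and night of 12 h. The stage 1 primordium (P1) was a white, capless stalk 5 to 20 mm long. Stage 2 primordia of 15 to 25 mm with a brown tip gave P2_cap and P2_stipe. Young fruiting bodies of 30 to 40 mm, with a cap of up to 5 mm and gills just visible, were divided into YFB_cap and YFB_stipe. At 50 to 70 mm and with the cap flattened, fruiting bodies were divided into FB_cap, FB_stipe and FB_lamellae (the gills). All groups share the strain, and no group was mutated or treated with an agent. The labels do not say whether gill tissue was taken with the young cap, or on which medium the VM samples grew.

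The stipe is the stalk that lifts the cap. In mushrooms it lengthens largely by the stretching of cells that already exist, with remodelling of a wall built of chitin and glucans, while the cap forms gills and the gills carry the spore-bearing layer. A stage 1 primordium is a stalk of packed hyphae without these parts. The identifiers of the files carry no names, and none matched the reference table of another strain, so the genes appear by identifier, the tissues could not be checked against named marker genes, and no protein or promoter sequence is shown.

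Reads assigned to genes numbered from 10841296 to 31818650 per library, and 13569 genes, all 52 members among them, had enough reads to be tested. The members spanned a wide range of levels. In YFB_stipe, where the choice required an M of at least 3, their median M was 6.27. Over all tested genes, which had no such limit, it was 4.09. M was at least 10 in 8 members and under 5 in 11. Gene models of members had a median length of 1158.5 bases (range 339 to 3135), against 1307 over all tested genes. The 5 members with the highest M in YFB_stipe were short, between 339 and 670 bases. In no member did fewer than 90% of the reads map uniquely.

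The members together made up a small share of transcripts in caps and a larger share in stipes. They held 4.56% ± 1.93 of TPM in P2_stipe, 4.57% ± 0.872 in YFB_stipe and 5.88% ± 0.317 in FB_stipe (SD, n = 3 each). In caps they held 0.671% ± 0.113 in P2_cap, 1.06% ± 0.246 in YFB_cap and 1.93% ± 0.795 in FB_cap (SD, n = 3 each). P1, whose values the choice did not use, held 2.38% ± 0.0205 (SD, n = 3), above every cap library but FB_cap replicate 1 (2.75%) and below every stipe library. This place of P1 rested in part on the 2 most abundant members, and shares without them are given further below. VM held 1.16% ± 0.316 and FB_lamellae 0.524% ± 0.235 (SD, n = 3 each). Per member, the median M was 6.17 in P1, 6.19, 6.27 and 5.86 in the stipes of the successive stages, 4.07, 4.28 and 4.19 in the caps, 3.96 in FB_lamellae and 4.77 in VM. In bulk tissue, fewer cells that express a gene and less RNA of it per cell cannot be told apart.

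**Figure D1:**
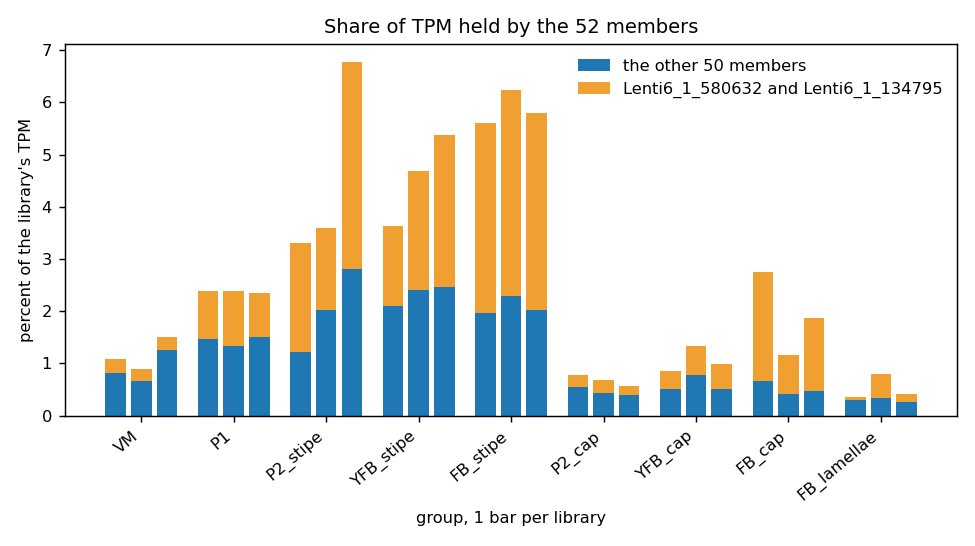
Share of each library's TPM (percent, y axis) held by the 52 members, 1 bar per library, grouped by tissue and stage along the x axis, with the 2 most abundant members in orange and the rest in blue. The FB_stipe bars stand between 5.61% and 6.23%, and the FB_lamellae bars between 0.364% and 0.794%.

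Lenti6_1_580632 and Lenti6_1_134795, the 2 members with the highest M in YFB_stipe, ranked 6 and 8 among all genes there. Lenti6_1_580632 had 9567, 9619 and 27843 TPM in P2_stipe against 986, 571 and 698 TPM in P2_cap. It had 20590, 25038 and 26258 TPM in FB_stipe against 13464, 6045 and 2703 TPM in FB_cap. Its stipe and cap libraries did not overlap at either stage, but its stipe minus cap difference of M went from 4.22 at stage 2 to 1.98 in the fruiting body. Lenti6_1_134795 had 15865, 14408 and 11538 TPM in FB_stipe and 7360, 1568 and 11145 TPM in FB_cap. Its FB_cap libraries were the most uneven of its groups on this scale, with replicate 3 close to the lowest FB_stipe library. Without these 2 genes, the other members held 2.02% ± 0.801 of TPM in P2_stipe, 2.32% ± 0.196 in YFB_stipe and 2.09% ± 0.171 in FB_stipe (SD, n = 3 each). In caps they held 0.455% ± 0.0848 in P2_cap, 0.595% ± 0.152 in YFB_cap and 0.517% ± 0.137 in FB_cap (SD, n = 3 each). P1 then held 1.43% ± 0.0914 (SD, n = 3), above every cap library and above P2_stipe replicate 1 (1.21%). The higher shares of FB_cap and FB_stipe than of YFB_cap and YFB_stipe were not seen without these 2 genes.

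The size of the difference between tissues varied between members, while its median over members was similar at the 3 stages. The median stipe minus cap difference of M was 2.03 at stage 2, 1.78 in the young fruiting body and 1.96 in the fruiting body. Over all tested genes it was -0.22, -0.19 and -0.18, so that on the TPM scale the typical gene stood slightly lower in stipes. The largest difference of a member fell at stage 2 in 18 members, in the young fruiting body in 17 and in the fruiting body in 17. Within a member, the 3 differences lay within 1 of each other in 27 of 52, and 4 members had a gap of 2 or more between their largest and smallest difference. In 29 members the smallest of the 3 differences was under 1.5.

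**Figure D2:**
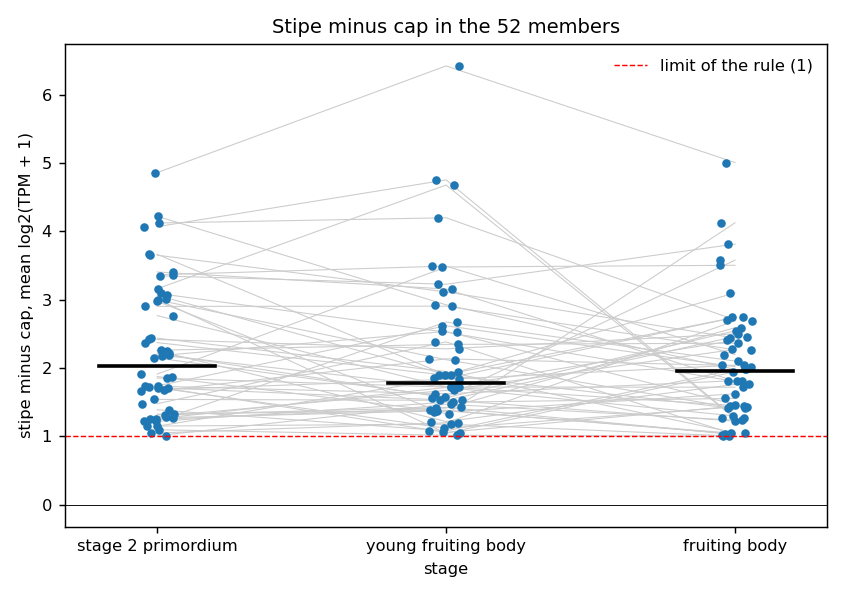
Difference between stipe and cap in mean log2(TPM + 1) (y axis) for each of the 52 members at the 3 stages (x axis), with grey lines joining the values of a member, black bars at the medians of 2.03, 1.78 and 1.96, and the limit of the choice as a dashed red line. Many points lie close above the limit, and the single gene above 6 is Lenti6_1_575656.

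Lenti6_1_575656 and Lenti6_1_580113 had the largest smallest difference. Lenti6_1_575656 had 284, 1346 and 1188 TPM in P2_stipe, 2153, 1799 and 2191 TPM in YFB_stipe and 1230, 2261 and 2639 TPM in FB_stipe. In caps it had 27.2, 37.6 and 16.2 TPM at stage 2, 15.2, 24.6 and 31.7 TPM in the young fruiting body and 126, 31.8 and 51.9 TPM in the fruiting body. Every stipe library lay above every cap library, and the differences of M were 4.86, 6.42 and 5.01. Its highest levels were in VM, with 3151, 2431 and 6343 TPM, so this gene was abundant in mycelium as well as in the stipe. Lenti6_1_580113 was a low gene, with 16.7, 32.4 and 33.3 TPM in FB_stipe and 0.653, 1.32 and 0.897 TPM in FB_cap. Its P2_stipe libraries were uneven, at 3.30, 63.8 and 94.8 TPM, and replicate 1 lay within the range of P2_cap (0.955 to 3.52 TPM).

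Not every member separated the tissues in every library. All 3 stipe libraries lay above all 3 cap libraries in 45 members at stage 2, in 48 in the young fruiting body and in 43 in the fruiting body. Over all tested genes the same held for 9.96%, 16.1% and 9.62%. It held at all 3 stages in 35 members, against 0.892% of tested genes. Because the choice used these values, nothing is read from these shares. P2_stipe replicate 1 was the lowest of its 3 libraries in 41 of 52 members, while P2_stipe replicate 2 was lowest in 5 and replicate 3 in 6.

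Values within a sequencing flowcell can be given for the 2 earlier stages. On the flowcell shared by P2_stipe replicate 3 and P2_cap replicate 3, all 52 members were higher in the stipe, 50 by at least 1, with a median difference of 2.88. On the 2 flowcells that held both tissues of the young fruiting body, all 52 were higher in the stipe. Their median differences were 1.72 and 2.06. Over all tested genes the medians on these flowcells, in the same order, were -0.37, -0.22 and -0.24. The choice used these same libraries, so nothing is read from the direction of the members. No flowcell held FB_stipe and FB_cap together.

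**Figure D3:**
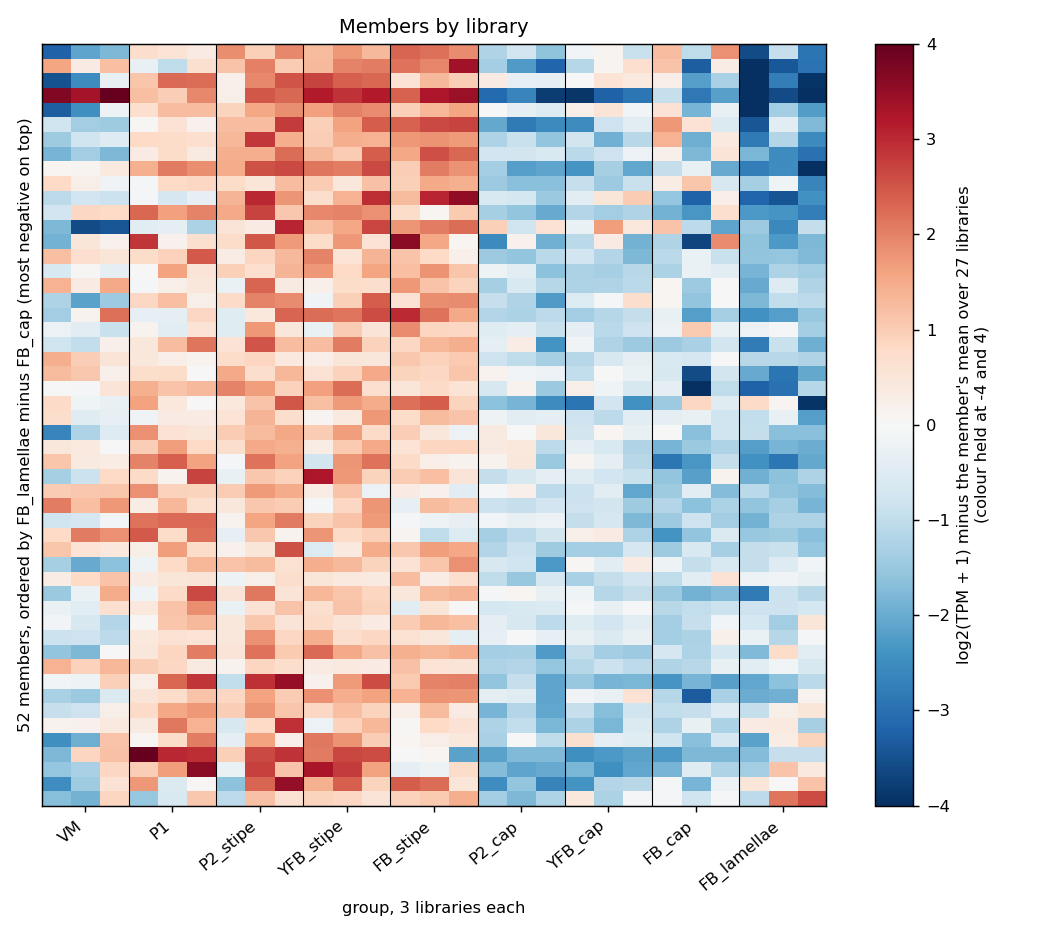
The 52 members (rows, ordered by FB_lamellae minus FB_cap with the most negative on top) in the 27 libraries (columns, 3 per group), coloured by log2(TPM + 1) minus the member's mean over all libraries, red above and blue below. P1 and the stipe groups are mostly red and the cap and lamellae groups mostly blue, VM is mixed between members, and P2_stipe replicate 1 (the first column of its group) is paler than the other P2_stipe libraries.

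The limits of the choice lie where the values are dense. Lenti6_1_601191 and Lenti6_1_652050 were inside by the least, each with a stipe minus cap difference of 1.00 in the fruiting body. Lenti6_1_503709 and Lenti6_1_608697 missed by the least, with 0.99 and 0.98 at the same stage. In all, 125 genes met every other condition and missed that of the fruiting body, 26 missed only that of the young fruiting body and 13 only that of stage 2. A further 14 missed only the limit on FB_stipe, because their level rose from YFB_stipe by 1 or more.

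The next comparisons were not conditions of the choice, though each involves a group that it used elsewhere. They were tested with edgeR's quasi-likelihood method on the read counts of all 27 libraries, with p-values adjusted by Benjamini-Hochberg over 13569 genes. Calls required a change of at least 2-fold besides an adjusted p under 0.05. Log2 fold changes are given with their standard error (SE).

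Many members stood higher in P1 than in VM. In P1, 23 of 52 members were called higher than in VM and 1 lower, against 6.91% higher and 8.08% lower among all tested genes. The median log2 fold change of members was 1.54, against 0.03 over all tested genes, and 43 of 52 were above 0. This comparison does not involve a cap or a stipe, but VM carried an upper limit in the choice. The labels used here give no days, temperature, light or medium for VM, so stage and culture conditions cannot be told apart. Among other tested genes whose stipe lay at least 1 above the cap at stage 2, 19.1% of 419 were called higher in P1 than in VM. Among those of the young fruiting body it was 11.4% of 792, with 8.71% lower, and among those of the fruiting body 21.1% of 446. The difference between these shares and that of the members was not tested.

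Lenti6_1_507263 had the largest rise. It had 12.0, 23.99 and 116 TPM in VM and 310, 690 and 682 TPM in P1, a log2 fold change of 3.59 ± 0.81 (SE) with an edgeR adjusted p of 0.00336. The groups did not overlap, and VM replicate 3 stood well above the other 2 VM libraries. The log2 fold change was 5.20 without VM replicate 3, and 2.70 with flowcell as a covariate. Lenti6_1_581931 had 2.00, 18.1 and 22.6 TPM in VM and 187, 83.3 and 79.5 TPM in P1 with a log2 fold change of 3.25 ± 0.73 (SE) and an edgeR adjusted p of 0.00323, and 2.62 on the log2 scale without P1 replicate 1.

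Lenti6_1_575656 was the 1 member called lower. It fell from 3151, 2431 and 6343 TPM in VM to 559, 477 and 910 TPM in P1, a log2 fold change of -2.41 ± 0.63 (SE) with an edgeR adjusted p of 0.00966. The groups did not overlap. Leaving out P1 replicate 2 ended the call, at a log2 fold change of -2.21 (edgeR adjusted p = 0.0529, between 0.000678 and 0.0529 over the alternatives), and the fold was -1.80 on the log2 scale without VM replicate 3 and -3.41 with flowcell as a covariate.

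The number called higher in P1 than in VM moved with single libraries, as did that of all tested genes. The 23 members stood beside 937 of 13569 tested genes. Without VM replicate 1, 14 members and 633 tested genes were called higher, and without VM replicate 2, 14 and 579. Without P1 replicate 3 these were 15 and 705. With flowcell as a covariate 13 members and 543 tested genes were higher, and 2 and 624 lower. The flowcell of VM replicates 1 and 2 held no library of P1. On the flowcell shared by VM replicate 3 and P1 replicate 2, 37 members were higher in P1, a count not made over all tested genes. The median difference of M was 0.84 in members and 0.04 over all tested genes.

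Before a cap is visible, the members stood at a level near that of the later stipe. M of P1 was within 1 of M of P2_stipe in 43 members and nearer to P2_stipe than to P2_cap in 47 (90.4%). This was not particular to these genes. Among 159 genes with the cap at least 1 above the stipe at every stage and M of YFB_cap at least 3, P1 was nearer to P2_stipe in 146 (91.8%). For tested genes with a difference at stage 2 alone as the condition, the shares were 90.4% of 471 genes higher in the stipe and 86.6% of 1149 genes higher in the cap.

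Against P1, members were lower in P2_cap and no member was called in P2_stipe. In P2_cap, 36 of 52 members were called lower than in P1 and 0 higher (a single member, not called, lay above 0), against 8.81% lower and 5.23% higher among all tested genes. Members had a median log2 fold change of -2.10, against -0.06 over all tested genes. The choice made P2_cap low in these genes, and among the 419 other tested genes with the stipe at least 1 above the cap at stage 2, 63.0% were called lower. Without P2_cap replicate 3, 23 members were called lower, while the lower calls over all tested genes went from 1196 to 776. On the flowcell shared by P1 replicate 2 and P2_cap replicates 1 and 2, 49 members were lower in the cap. That count was not made over all tested genes. The median difference of M was -1.59 in members and -0.03 over all tested genes.

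Lenti6_1_581931 had the largest fall, to 1.36, 2.05 and 2.05 TPM in P2_cap from 187, 83.3 and 79.5 TPM in P1 (edgeR log2 fold change -6.17 ± 0.85 SE, adjusted p = 8.37e-05). Its value was -5.54 without P1 replicate 1. Lenti6_1_575656 fell to 27.2, 37.6 and 16.2 TPM from 559, 477 and 910 TPM (edgeR log2 fold change -4.72 ± 0.70 SE, adjusted p = 0.000156). Neither gene overlapped between the groups, and both calls held in every alternative run.

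In P2_stipe against P1, edgeR called 0 of 52 members and 0% of all tested genes. In simulated counts, 75% of 4-fold changes and 12% of 2-fold changes, which lie at the limit of a call, were recovered here. The absence of calls therefore does not show that levels were equal. At an unadjusted edgeR p under 0.05 there were 9 members (17.3%), 8 of them higher, against 9.03% of all tested genes. limma-voom called 0 members and 0 tested genes. DESeq2 called 1 member, as higher, beside 13 tested genes higher and 36 lower. The median log2 fold change was 0.45, with 40 of 52 above 0, and it was 0.12 without P2_stipe replicate 3 and 0.66 without P1 replicate 3. P2_stipe was chosen high in these genes. On the flowcell of P2_stipe replicate 2 and P1 replicate 3 the median difference of M was 0.46, against -0.10 over all tested genes. On that of P2_stipe replicate 1 and P1 replicate 1 it was -0.04, against 0.09. Without P2_stipe replicate 1 the median was 0.61.

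In YFB_stipe against P2_stipe, edgeR also called 0 members and 0% of all tested genes. At an unadjusted edgeR p under 0.05 there were 2 members, 1 higher and 1 lower, against 6.22% of all tested genes, and limma-voom and DESeq2 called 0. The median log2 fold change was -0.06, and it was 0.27 without P2_stipe replicate 3 and -0.31 without P2_stipe replicate 1. On the 2 flowcells shared by these groups the median differences of M were -0.35 and -0.00, against 0.03 and 0.11 over all tested genes.

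From YFB_stipe to FB_stipe the choice set an upper limit only. The difference of M ran from -3.14 to 0.98 with a median of -0.06, against -0.20 over all tested genes, and it was within 0.5 in 25 members. A loss of 1 or more was seen in 8 members. Lenti6_1_581931 lost the most, with 43.1, 66.1 and 62.5 TPM in YFB_stipe and 9.43, 10.1 and 1.37 TPM in FB_stipe, where replicate 4 lay within the FB_cap range of 1.11 to 2.05 TPM. All 8 of these members had a higher M in P1 than in P2_stipe, which held for 17 of all 52. That pattern was noticed after the values were seen and was not tested.

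**Figure D4:**
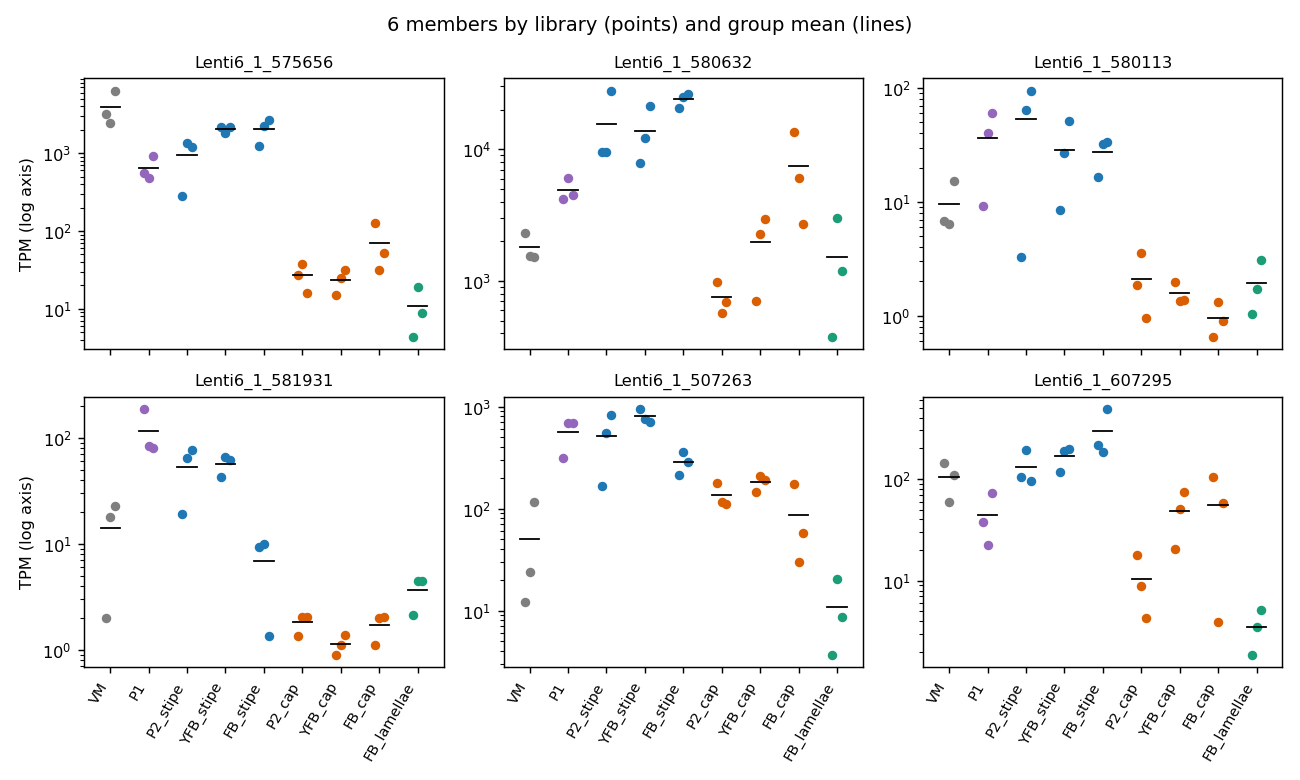
TPM (log axis) of 6 members in every library, 3 points per group with the group mean as a line, in mycelium (grey), stage 1 primordium (purple), stipe (blue), cap (orange) and lamellae (green). Lenti6_1_575656 is highest in mycelium, Lenti6_1_581931 is highest in P1 and loses most of its level by FB_stipe, and Lenti6_1_507263 and Lenti6_1_607295 are lowest in lamellae.

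Few members were called between the caps of the young and the mature fruiting body. In FB_cap, 5 of 52 members were called higher than in YFB_cap and 0 lower, against 10.6% higher and 5.70% lower among all tested genes, so the share called was near the background. At an unadjusted edgeR p under 0.05 there were 13 members (25.0%), 12 higher and 1 lower, against 37.5% of all tested genes. Members had a median log2 fold change of 0.31, against 0.11 over all tested genes, and 33 of 52 were above 0. On the TPM scale the median turned to -0.07, with -0.19 over all tested genes. Among the 792 other tested genes with the stipe at least 1 above the cap in the young fruiting body, 45.1% were called higher. Of the 419 with that difference at stage 2, 37.9% were. Of the 446 with it in the fruiting body, 2.24% were called higher and 27.1% lower. The set of the young fruiting body was chosen with YFB_cap low, and that of the fruiting body with FB_cap low. The choice kept members low in both caps, and the difference between these shares was not tested.

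Lenti6_1_580632 had 700, 2265 and 2968 TPM in YFB_cap and 13464, 6045 and 2703 TPM in FB_cap, higher in FB_cap by 2.20 ± 0.69 (SE) on the log2 scale (edgeR adjusted p = 0.0261, from 0.00529 to 0.142 over the alternatives). On the TPM scale 1 FB_cap library lay below the highest YFB_cap library. Lenti6_1_575656 had 15.2, 24.6 and 31.7 TPM in YFB_cap and 126, 31.8 and 51.9 TPM in FB_cap (edgeR log2 fold change 1.86 ± 0.62 SE, adjusted p = 0.0345, from 0.0119 to 0.202 over the alternatives), and its groups almost touched. Both calls were lost in a fit of the 6 libraries alone and without FB_cap replicate 1, YFB_cap replicate 1 or YFB_cap replicate 2. Without FB_cap replicate 1 the log2 fold changes were 1.38 and 1.07, and with flowcell as a covariate they were 3.05 and 2.60. The call of Lenti6_1_575656 was also lost with that covariate, with limma-voom, without YFB_cap replicate 3 and at a 4-fold limit.

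None of the 5 calls held in every alternative. Over all tested genes 1432 were called higher, and this number moved under several of the same settings. In a fit of the 6 libraries alone 0 members and 354 tested genes were called higher, and without YFB_cap replicate 2, 0 and 700. With flowcell as a covariate the numbers were 2 and 206, and without YFB_cap replicate 3 they were 2 and 718. Without YFB_cap replicate 1, 2 members were called higher while the number over all tested genes was 1430. limma-voom called 3 members and 1077 tested genes higher, and DESeq2 9 and 1556. Without FB_cap replicate 3 the numbers were 8 and 1408. No flowcell held both groups.

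In the mature lamellae the members were far below the stipe. In FB_lamellae, 45 of 52 members were called lower than in FB_stipe and 0 higher, against 6.35% lower and 9.45% higher among all tested genes, and 39 of the 45 were past 4-fold. Across members the median was -3.07 on the log2 scale, against 0.01 over all tested genes, and 51 of 52 were below 0. FB_stipe was chosen high against FB_cap. Among the 446 other tested genes with the stipe at least 1 above the cap in the fruiting body, 50.4% were called lower in lamellae than in the stipe, with a median of -1.34. The difference between these shares was not tested. No flowcell held both groups. With flowcell as a covariate, which leaves FB_stipe to replicates 2 and 3, 29 members were called lower, with a median of -2.79, and the lower calls over all tested genes went from 861 to 422.

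Lenti6_1_575656 had the largest difference, with 4.38, 19.1 and 8.85 TPM in FB_lamellae against 1230, 2261 and 2639 TPM in FB_stipe (edgeR log2 fold change -7.99 ± 0.81 SE, adjusted p = 1.45e-06). Its value was -8.73 without FB_lamellae replicate 2. Lenti6_1_607295 had 1.85, 3.53 and 5.12 TPM in FB_lamellae against 214, 185 and 487 TPM in FB_stipe (edgeR log2 fold change -6.87 ± 0.96 SE, adjusted p = 3.91e-05). With flowcell as a covariate the values were -7.04 and -5.63. Neither gene overlapped between the groups, and both calls held in every alternative run.

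The lamellae lay below even the cap in a part of the members. M of FB_lamellae was below M of FB_cap in 35 of 52 members (67.3%), against 33.9% of all tested genes. Among the 498 tested genes with FB_stipe at least 1 above FB_cap, members included, it was 36.7%. FB_lamellae was the lowest of the 9 groups in 27 members. No stipe group could be lowest, because the choice set each stipe above its cap. The share over all tested genes was not computed. With edgeR, 9 members were called lower in FB_lamellae than in FB_cap and 0 higher, against 1.86% lower and 0.545% higher among all tested genes. The median log2 fold change was -0.92, against -0.01 over all tested genes, and 39 of 52 were below 0. On the TPM scale the median was -0.63, with 0.20 over all tested genes. Of the 446 other tested genes with FB_stipe at least 1 above FB_cap, 2.91% were called lower in lamellae than in the cap. Their median log2 fold change was 0.22, and FB_cap was chosen low in them. Of the 419 other genes with that difference at stage 2, 9.55% were called lower, with a median of -0.52. Of the 792 with it in the young fruiting body, 9.47% were, with a median of -0.57. The difference between these shares was not tested.

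Lenti6_1_134795 had 262, 1669 and 416 TPM in FB_lamellae against 7360, 1568 and 11145 TPM in FB_cap, which is -3.33 ± 0.66 (SE) on the log2 scale (edgeR adjusted p = 0.0131, from 1.17e-05 to 0.652 over the alternatives). Lenti6_1_507263 had 3.66, 20.2 and 8.58 TPM in FB_lamellae against 174, 30.1 and 57.2 TPM in FB_cap (edgeR log2 fold change -3.28 ± 0.81 SE, adjusted p = 0.0325, from 0.000728 to 0.652 over the alternatives). Lenti6_1_507263 did not overlap between the groups, while on the TPM scale FB_cap replicate 2 of Lenti6_1_134795 lay below FB_lamellae replicate 2. Both calls were lost in a fit of the 6 libraries alone (log2 fold changes -3.32 and -3.25) and without FB_lamellae replicate 3 (-3.01 and -3.11). That of Lenti6_1_507263 was also lost without FB_lamellae replicate 1 (-2.86), without FB_cap replicate 1 (-2.23) and with the replicate number as a block (-3.43, edgeR adjusted p = 0.0505). Without FB_lamellae replicate 2 the values were -4.58 and -4.14.

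The calls in this comparison, 9 members and 253 tested genes lower, moved with single libraries. A fit of the 6 libraries alone called 0 members and 0 tested genes, with 1028 tested genes at an unadjusted edgeR p under 0.05. Without FB_lamellae replicate 3, 0 members and 26 tested genes were called lower, and without FB_lamellae replicate 1, 4 and 167. Without FB_cap replicate 2 the numbers were 14 and 357. With the replicate block they were 6 and 175, and without FB_cap replicate 1 they were 6 and 257. Without FB_cap replicate 2 and FB_lamellae replicate 1 together, a choice made after the data were seen, 9 members were called lower, with a median of -0.94, beside 238 tested genes. On the 2 flowcells shared by these groups, members had median differences of M of -0.24 and -0.11, against 0.04 and 0.24 over all tested genes. Of the 52 members, 33 and 29 were lower in the lamellae, and the shares over all tested genes were not computed.

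**Figure D5:**
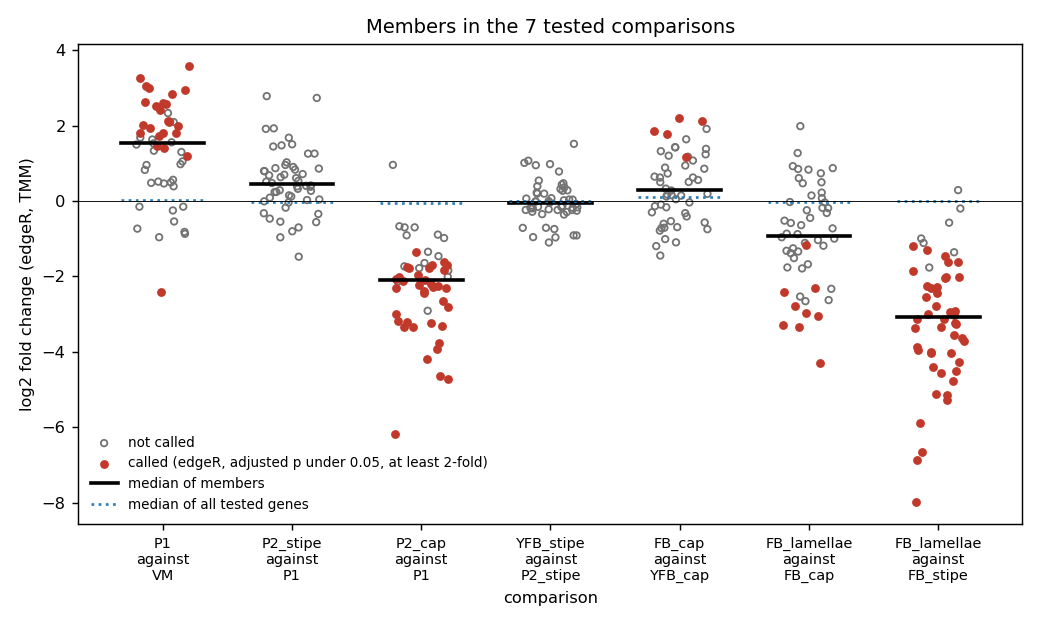
Log2 fold change from edgeR (y axis) of the 52 members in the 7 tested comparisons (x axis), with called members as filled red points, others as open points, the median of members as a black bar and that of all tested genes as a dotted blue line. The medians are 1.54, 0.45, -2.10, -0.06, 0.31, -0.92 and -3.07 from left to right, and the dotted lines all lie between -0.06 and 0.11.

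The members differed in their level in mycelium relative to the stipe. M of VM lay at least 1 below M of YFB_stipe in 33 members and within 1 of it in 19, of which 9 were above it. The median of this difference was -1.55, against 0.32 over all tested genes, and the choice kept VM less than 1 above YFB_stipe. The choice also put each stipe above its cap and limited FB_lamellae, so nothing is read from these counts or the next. The highest of the 9 group means was a stipe group in 37 members, P1 in 10, VM in 4 and FB_lamellae in 1. That 1 member, Lenti6_1_500786, had 5.27, 56.4 and 78.2 TPM in FB_lamellae and 23.5, 25.5 and 34.1 TPM in FB_stipe. Its lamellae libraries spread over both sides of the stipe range, and edgeR did not call it between lamellae and stipe (log2 fold change 0.29 ± 0.82 SE, adjusted p = 0.836). It is named because it stood out, after its values were seen.

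Members were also less even between replicate libraries than the typical gene. The median SD of log2(TPM + 1) between the 3 libraries of a group was higher for members than for all tested genes in every group. It was 0.73 against 0.33 in P2_stipe, 0.84 against 0.39 in FB_cap and 0.42 against 0.26 in FB_stipe. Leaving out each of the 24 libraries of the 8 groups used, in turn, gave between 45 genes (without P2_stipe replicate 2) and 62 (without YFB_stipe replicate 1), and 21 of the 52 members were chosen every time.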

How the data were processed

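PolyA RNA of 27 samples was sequenced from TruSeq RNA v2 libraries, per the labels' protocols. Strand is not stated. The submitters' processing notes list R 3.0.2, edgeR 3.4.2 and limma 3.18.13. For the aligner and the genome build, nothing is given in the sources used here. The authors deposited, per library, counts of all and of uniquely mapped reads per gene, gene lengths and TPM. TPM recomputed from counts and lengths differed by at most 3.5e-10. A deposited table of log2 RPKM values for 13805 genes, with 0 columns of other samples, served only as an alternative. Of 15665 genes in the reference table (assembly Lenti7_1, another strain), 0 shared an identifier with the files. The files number each gene model from its own first base, so positions in the genome are not used here. Identifiers are printed with _ in place of bars.

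Members were found from the deposited TPM (pseudocount 1). Total counts were filtered with filterByExpr (minimum count 10), which removed 2012 genes, scaled by TMM and fitted with edgeR 4.0.16 (R 4.3.3) as 9 group means with 1 estimate of the spread per gene from all groups (18 residual degrees of freedom). The shared spread is smaller than that of uneven groups such as FB_cap, so a fit of only the 6 libraries of a comparison was an alternative. Depth was 10841296 to 31818650 reads. The functions were tested on simulated counts for the same 13569 genes. Alternatives used DESeq2 1.42.0, limma-voom 3.58.1, upper quartile scaling, no filter, unique reads, flowcell, the replicate block and left-out libraries. The labels call the 3 libraries of a group biological replicates, and no 2 libraries agreed within sampling noise (chi-square per degree of freedom at least 43.9).

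The members, comparisons and naming rule were chosen with earlier results of these data known. Named are the 2 members highest in YFB_stipe, the 2 with the largest smallest difference, those nearest the limits on each side, and up to 2 rises and 2 falls per comparison among called members whose libraries do not overlap and whose higher mean is at least 20 CPM (TMM-scaled). That overlap was judged on CPM. Same-numbered replicates deviated together in all 3 pairs only for YFB_stipe with P2_stipe (correlations 0.289 to 0.403), where the block changed no call. What same-numbered samples share is not stated.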

Additional observations from a re-analysis of the deposited data

How the results depend on the processing

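The number of members was 83 with the authors' log2 RPKM values (49 shared with the 52) and 23 with a difference of at least 1.5. It was 72 with TMM-scaled CPM per kilobase (49 shared) and 39 with a pseudocount of 5, and from 45 to 62 with single libraries left out. At 4-fold, calls were 15 in P1 against VM and 2 in FB_cap against YFB_cap. With flowcell as a covariate they were 15, 2 and, in FB_lamellae against FB_stipe, 29, with a median of -2.79 there. In the 6 libraries alone they were 0 in FB_cap against YFB_cap and 0 in FB_lamellae against FB_cap. For FB_cap against YFB_cap limma-voom called 3 and DESeq2 9, and for P2_stipe against P1 DESeq2 called 1. With single libraries left out, calls ran from 15 to 27 in P1 against VM, 23 to 33 in P2_cap against P1, 0 to 8 in FB_cap against YFB_cap, 0 to 14 in FB_lamellae against FB_cap and 42 to 44 in FB_lamellae against FB_stipe. The median of YFB_stipe against P2_stipe, -0.06, changed sign to 0.0349 with upper quartile scaling and 0.0134 with the flowcell covariate, and ran from -0.31 to 0.27 with single libraries left out. The causes were not tested. With uniquely mapped reads the P1 share of TPM was 2.40%, and counts of members and calls were those of total reads. With the replicate block, calls were 22 in P1 against VM, 34 in P2_cap against P1, 5 in FB_cap against YFB_cap, 6 in FB_lamellae against FB_cap, 42 in FB_lamellae against FB_stipe and 0 in the others. FB_stipe replicate 4 is alone with its number and its flowcell, so both fits leave it out in effect.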
